A study of Mus musculus with 32 samples.

Results

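Peroxisomes shorten the fatty acids that mitochondria handle poorly, such as very long chains and branched chains. Acyl-CoA enters through transporters of the ABCD family, is oxidised, then hydrated and dehydrogenated by a bifunctional enzyme and cleaved by a thiolase, and the shortened chain leaves as a carnitine ester. In rodent liver many of these genes are induced by PPARα, a nuclear receptor activated by fatty acids; PPARδ is a related receptor with overlapping targets. The genes described here are 9 that encode steps of this route or, for Pex11a, a protein of peroxisome division: Ehhadh, Hsd17b4, Acaa1a, Acaa1b, Scp2, Decr2, Abcd3, Crot and Pex11a. They were chosen by symbol among the 54418 gene identifiers of the deposited count table, and each symbol matched 1 identifier.

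RNA was measured in GFP-high intestinal stem cells of C57BL6 mice, sorted from isolated crypts on an epithelial surface marker (CD326) and a viability dye, by a high-throughput 3′ digital gene expression assay that counts reads near the 3′ end of polyadenylated transcripts. There were 8 groups of 4 libraries. PparDA mice carried Ppard-fl/fl and Ppara-null, PparA mice Ppara-null alone, PparD mice Ppard-fl/fl alone, and WT mice neither, and each genotype was fed a high-fat or a control diet. The sources used here give no Cre driver, recombination check, GFP transgene, age or length of feeding. Nothing in the labels ties the 4 libraries of a group to separate animals, so p-values measure the spread between libraries, which may be partly technical. Sex-linked transcripts, given with the library runs, differ between libraries of each group, so no group came from a single animal.

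Totals ran from 612672 to 724155 counts per library, a ratio of 1.18 between the largest and the smallest. Levels are given as CPM, read counts scaled to the size of each library. The stem cell markers Olfm4 (7060 to 13100 CPM), Lgr5 (28.1 to 64.4 CPM) and the epithelial marker Epcam (109 to 234 CPM) were present in all 32 libraries, and Col3a1 and Hba-a1 (stroma and red cells) had no count in any. Markers of differentiated cells were present as well, at a summed level of 1380 to 4610 CPM for enterocytes, 2730 to 43200 CPM for Paneth cells and 647 to 3800 CPM for goblet cells. The targeted genes gave too few counts per library to check the genotypes. Ppara had 0 to 4 counts in the 16 Ppara-null libraries, against 0 to 5 in the 16 Ppara-intact ones, and Ppard had 1 to 7 counts in the 16 Ppard-fl/fl libraries, against 0 to 7 in the 16 Ppard-intact ones. Summed over libraries, Ppara had 24 counts in Ppara-null and 43 in Ppara-intact ones. Ppard had 54 counts in Ppard-fl/fl and 54 in Ppard-intact libraries, so no loss of Ppard counts was seen. These sums were not tested for a difference. Whether the 3′ end lies outside the altered part of either gene was not tested.

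The promoters are shown because the comparisons concern mutants of PPAR proteins, which bind DNA at a pair of AGGTCA elements spaced by 1 base. Of the 9 genes, 8 had an entry in the RefSeq promoter table (build GRCm38.p6), with 9 start sites between them, and Hsd17b4 had none, so the motif counts do not cover it. Each window printed is the 250 bases before the RefSeq start, 5′ to 3′ on the gene's strand, and capitals mark an exact single element (AGGTCA, or TGACCT for the opposite strand). By the gene coordinates given further on, the Scp2 and Acaa1a windows lie inside their genes and the Crot window lies partly inside. That annotation therefore places these starts elsewhere than RefSeq does. Ehhadh and Crot are shown as members often listed as PPARα targets, Scp2 for its AGGTCA element, and Acaa1a and Acaa1b as a pair of closely related genes on chromosome 9.
Ehhadh (chr16:21787835-21788084, minus strand): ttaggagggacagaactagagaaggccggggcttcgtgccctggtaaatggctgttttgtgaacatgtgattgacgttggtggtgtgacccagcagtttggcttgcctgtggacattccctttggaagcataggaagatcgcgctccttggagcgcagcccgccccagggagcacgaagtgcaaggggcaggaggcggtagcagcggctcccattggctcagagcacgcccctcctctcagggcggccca
Crot (chr5:8997147-8997396, minus strand): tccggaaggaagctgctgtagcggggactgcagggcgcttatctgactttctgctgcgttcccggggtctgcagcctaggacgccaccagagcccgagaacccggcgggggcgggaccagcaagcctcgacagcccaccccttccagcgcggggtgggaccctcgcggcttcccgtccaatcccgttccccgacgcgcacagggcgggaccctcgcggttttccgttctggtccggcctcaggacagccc
Scp2 (chr4:108118548-108118797, minus strand): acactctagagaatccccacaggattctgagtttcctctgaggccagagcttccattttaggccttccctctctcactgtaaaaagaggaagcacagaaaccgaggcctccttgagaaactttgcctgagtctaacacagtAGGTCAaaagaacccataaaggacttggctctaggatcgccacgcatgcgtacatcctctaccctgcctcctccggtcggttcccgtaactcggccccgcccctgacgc
Acaa1a (chr9:119341044-119341293, plus strand): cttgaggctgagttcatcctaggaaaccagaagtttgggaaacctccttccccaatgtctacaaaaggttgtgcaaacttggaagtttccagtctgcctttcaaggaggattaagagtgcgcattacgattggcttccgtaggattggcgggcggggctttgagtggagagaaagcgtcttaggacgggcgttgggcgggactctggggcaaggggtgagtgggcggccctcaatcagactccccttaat
Acaa1b (chr9:119157094-119157343, minus strand): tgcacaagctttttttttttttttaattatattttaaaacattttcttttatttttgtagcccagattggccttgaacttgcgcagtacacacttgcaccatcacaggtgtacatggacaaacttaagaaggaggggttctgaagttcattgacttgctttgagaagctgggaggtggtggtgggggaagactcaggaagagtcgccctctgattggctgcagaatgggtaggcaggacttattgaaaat
The full motif, AGGTCANAGGTCA or TGACCTNTGACCT on the opposite strand, was found with up to 2 mismatches in 0 of the 9 windows, against 1063 of all 32851 windows (3.24%). An exact single element, which the full motif also contains, was found in 1 of the 9 (11.1%), at position -109 of Scp2, against 14% of all windows. These are counts of letters in a short window and say nothing about binding, which can lie elsewhere.

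A gene was tested for difference when its counts passed a filter on low values, which 7 members did. Acaa1b (mean 1.06 counts per library) and Pex11a (3.41 counts) did not, and they are described by permutation tests only. Among the 7 members tested, within-group variance of the counts was 1.2 to 1.57 times their mean for Ehhadh, Acaa1a, Abcd3, Crot and Decr2, 2.11 times for Hsd17b4 and 6.26 times for Scp2, where 1 is what counting alone gives. So the spread between libraries of the first 5 lay not far above counting error. At a given relative spread this ratio rises with the count, and Scp2 averaged 214 counts per library. The relative spread beyond counting error, as estimated by edgeR for each gene, was 17% for Scp2 and 13.9% for Hsd17b4. For the first 5 it was 13.1 to 17.9%, so Scp2 was not more variable than these on that scale. For each of the 9 genes, the ranges of all 7 neighbouring pairs in the order of group means overlapped.

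**Figure D1:**
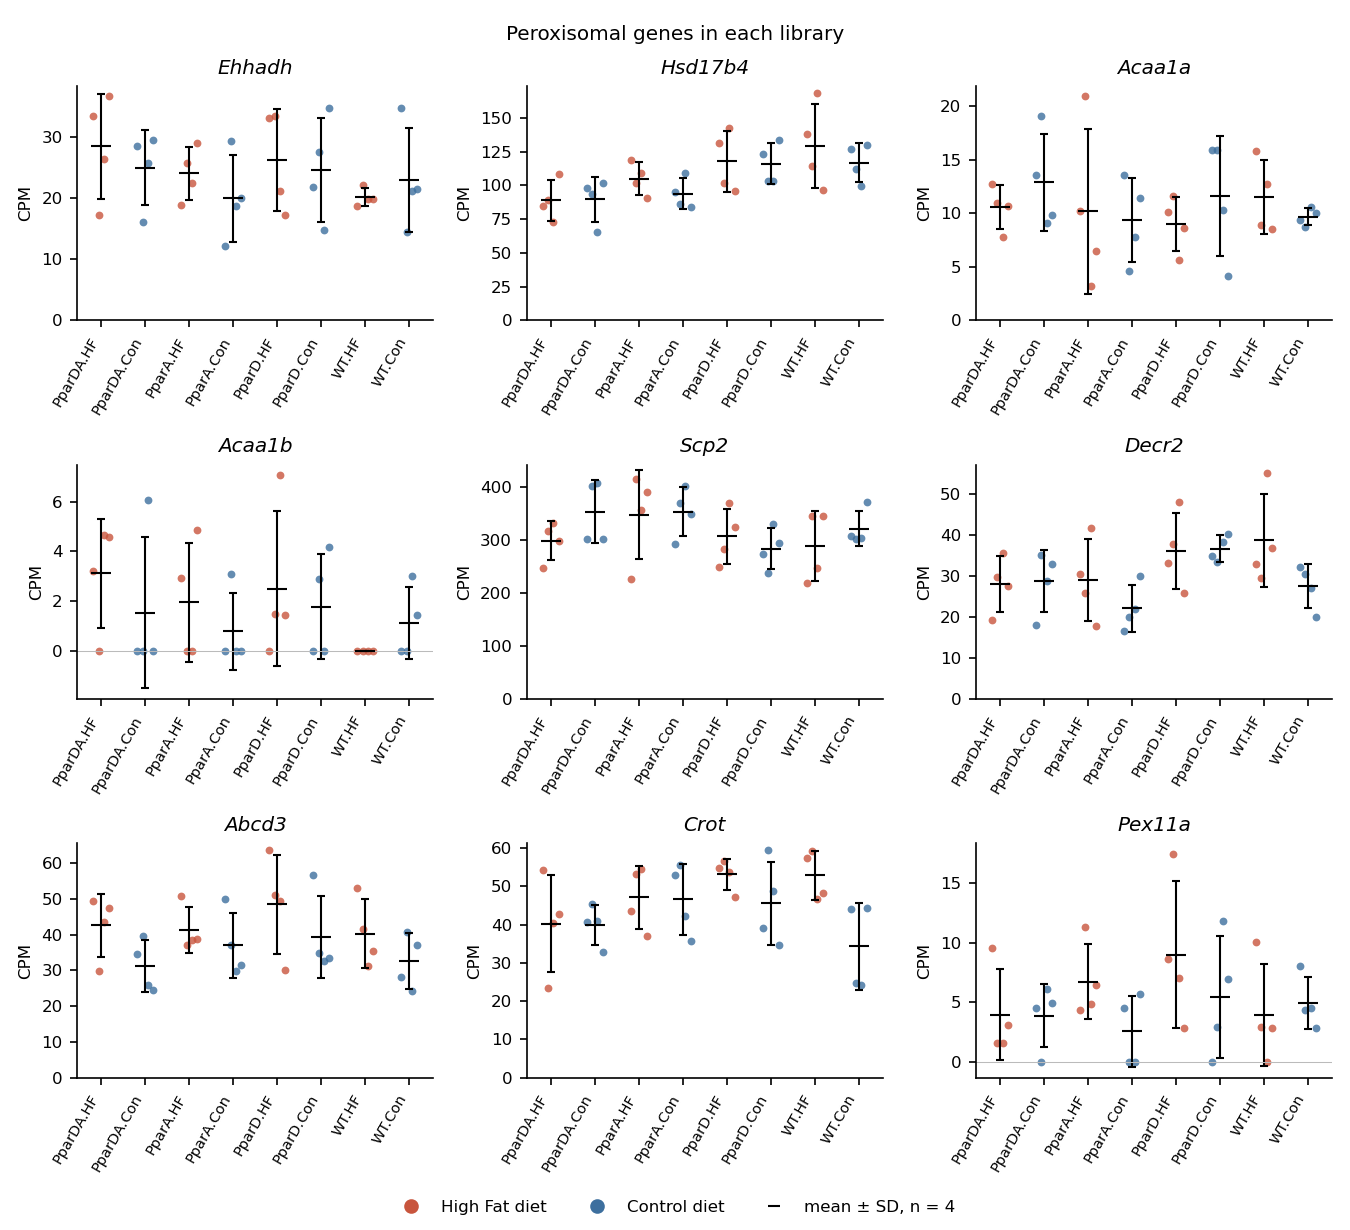
CPM of each member in every library, by group (HF, high-fat; Con, control diet), with the mean and SD of 4 libraries; the horizontal spread of points within a group has no meaning. The Hsd17b4 points of PparDA and PparA lie mostly below those of PparD and WT, with overlap, while the points of Scp2, Abcd3 and Crot overlap across most groups.

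Hsd17b4, the D-bifunctional protein that hydrates and dehydrogenates the chain (GRCm38 chr18:50128201-50196269, plus strand), was the only member that passed the test in any of the 16 comparisons. It was lower in the Ppara-null libraries. Across the 16 Ppara-null libraries (PparDA and PparA on both diets) Hsd17b4 had a lowest value of 65.4, a median of 94.7 and a highest of 119 CPM, against 96.0, 119 and 169 CPM in the 16 Ppara-intact libraries (PparD and WT on both diets). The ranges of the 2 sets overlapped between 96.0 and 119 CPM, and the median of the intact libraries equalled the highest null value after rounding. Means were 94.4 ± 14.1 CPM in Ppara-null and 120 ± 20.3 CPM in Ppara-intact libraries (SD, n = 16 each). The log2 fold change averaged over Ppard genotype and diet was -0.35 (SE 0.084, 95% interval -0.52 to -0.18), a fold of 0.786, with adjusted p = 0.0075 (edgeR quasi-likelihood test, two-sided, Benjamini-Hochberg over the 5872 genes tested). In that comparison 445 of the 5872 tested genes were called, 258 higher and 187 lower (7.58%), and 1 of the 7 tested members was, a count near the background.

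By group (SD, n = 4), high-fat before control diet, Hsd17b4 averaged 88.9 ± 14.9 and 89.8 ± 16.6 CPM in PparDA and 105 ± 12.1 and 93.9 ± 11.5 CPM in PparA. It averaged 118 ± 22.6 and 116 ± 15.2 CPM in PparD and 129 ± 31.2 and 117 ± 14.2 CPM in WT, with the diets given likewise. All 4 Ppara-null group means therefore lay below all 4 Ppara-intact ones. No single-group comparison reached the threshold. PparDA differed from WT by -0.54 on the log2 scale on the high-fat diet (SE 0.168, edgeR adjusted p = 0.11) and by -0.39 on the control diet (SE 0.168, adjusted p = 0.29). PparA differed from WT by -0.29 on the high-fat diet (SE 0.166, edgeR adjusted p = 0.51) and by -0.32 on the control diet (SE 0.168, adjusted p = 0.61). Without WT high-fat library 18 the PparA value on the high-fat diet was -0.14. The PparDA value on the high-fat diet was -0.97 in runs 1 and 3 and -0.08 in runs 2 and 4, the pairs of library runs described next. In the same subsets PparA on the high-fat diet reached -0.12 (runs 2 and 4), and on the control diet it was -0.16 (runs 1 and 3) and -0.49 (runs 2 and 4).

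The libraries fall into 4 runs of 8 consecutive numbers, each with every group once. In runs 1 and 3 Xist was at 465.2 to 927.7 CPM and Ddx3y at 0, and in runs 2 and 4 Xist was at 0 to 9.698 CPM and Ddx3y at 14.26 to 38.79 CPM, so the pairs of runs differ in these sex-linked transcripts and sex and run cannot be told apart. Within runs 1 and 3, Hsd17b4 was at 65.4 to 119 CPM (median 96.7) in Ppara-null libraries, against 99.7 to 169 CPM (median 129) in intact ones (n = 8 each). Within runs 2 and 4 it was at 84.1 to 109 CPM (median 92.2) in Ppara-null libraries, against 96.0 to 134 CPM (median 107) in intact ones. The log2 fold change was -0.46 in runs 1 and 3 (edgeR adjusted p = 0.056) and -0.22 in runs 2 and 4 (adjusted p = 0.26), lower in Ppara-null in both but past the threshold in neither.

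Other cell types moved with the same comparison. Of 15 tested enterocyte markers 12 were higher in the Ppara-null libraries, and their summed level had a lowest value of 1380, a median of 2380 and a highest of 4610 CPM there, against 1410, 1700 and 2050 CPM in intact libraries. Of 6 tested goblet markers 4 were higher, with sums of 1040, 2090 and 3800 CPM in Ppara-null, against 647, 1470 and 2910 CPM in intact libraries. Of 9 Paneth markers 1 and of 3 enteroendocrine markers 1 were called higher. Paneth sums (lowest, median, highest) were 3950, 13000 and 40000 CPM in Ppara-null, against 2730, 8380 and 43200 CPM in intact libraries. Enteroendocrine sums were 22.8, 76.1 and 270 CPM against 16, 45.2 and 129 CPM in the same order. Of 11 stem cell markers 1 (Tnfrsf19) was lower, and none of 2 tuft cell markers was called. Over all tested genes 7.58% were called in this comparison. In bulk samples fewer cells of a type and less RNA per cell cannot be told apart. Without the 2 libraries of the highest enterocyte sums (both PparA, at 4610 CPM for a high-fat and 4550 CPM for a control library, chosen after seeing the data), Hsd17b4 had a log2 fold change of -0.33 and an edgeR adjusted p of 0.023. The remaining Ppara-null sums still reached 3310 CPM, above the intact maximum of 2050 CPM, so the marker difference remained. The part of cell composition in the result was not tested.

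**Figure D2:**
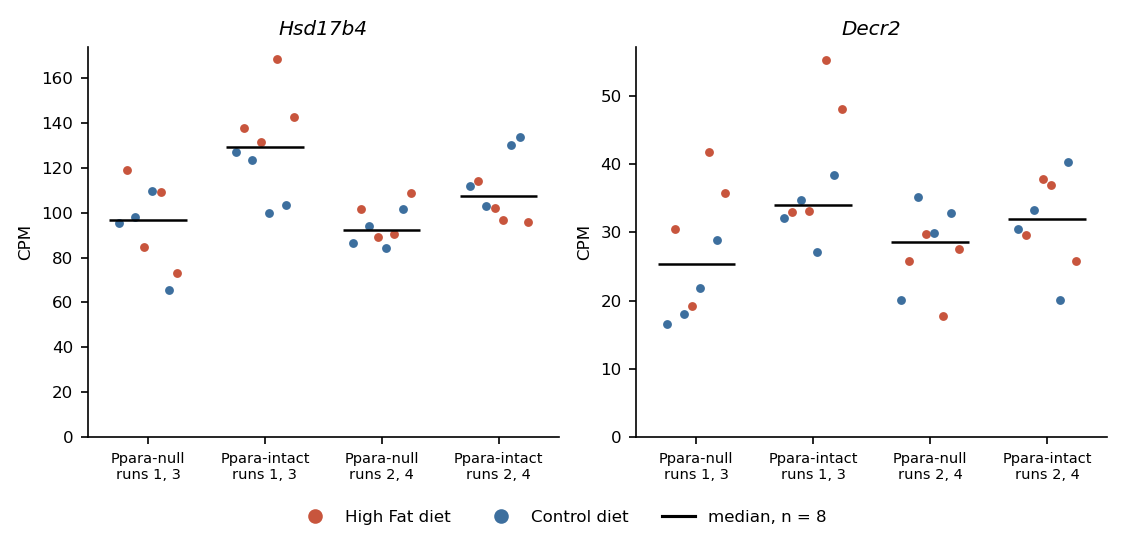
CPM of Hsd17b4 and Decr2 in Ppara-null and Ppara-intact libraries, split by pairs of library runs; colours give the diet and lines the median of 8 libraries. In both genes and both pairs of runs the Ppara-null median lies below the intact one, and the sets overlap.

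Decr2, the peroxisomal 2,4-dienoyl-CoA reductase that handles unsaturated chains (GRCm38 chr17:26081208-26090337, minus strand), came next. In the 16 Ppara-null libraries Decr2 had a lowest value of 16.7, a median of 28.2 and a highest of 41.8 CPM, against 20.0, 33.3 and 55.2 CPM in the 16 intact ones, so most of the 2 ranges was shared. Its log2 fold change was -0.36 (SE 0.128, 95% interval -0.62 to -0.10), with an unadjusted p of 0.009 and an edgeR adjusted p of 0.091 in the Ppara-null comparison. Of the alternatives run, the adjusted p was under 0.05 only without library 22 (PparA, high-fat diet, 41.8 CPM), at 0.038. Within runs 1 and 3 the medians were 25.4 CPM in Ppara-null and 34.0 CPM in intact libraries, and within runs 2 and 4 they were 28.7 CPM in Ppara-null and 32 CPM in intact libraries. In single comparisons with WT, Decr2 differed by -0.46 in PparDA and -0.41 in PparA on the high-fat diet, and by 0.06 in PparDA and -0.31 in PparA on the control diet (log2, edgeR adjusted p 0.45 to 0.95). Single libraries moved these values: without WT high-fat library 18 they were -0.24 in PparDA and -0.19 in PparA on the high-fat diet. Leaving out each library gave -0.63 to -0.19 for PparA on the high-fat diet, -0.49 to -0.19 for PparA on the control diet and -0.06 to 0.23 for PparDA on the control diet.

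The other bifunctional enzyme, Ehhadh (GRCm38 chr16:21761287-21787807, minus strand), did not pass the test. It had a lowest value of 12.1, a median of 25.8 and a highest of 36.8 CPM in Ppara-null libraries, against 14.6, 21.3 and 34.8 CPM in intact ones. The log2 fold change of Ehhadh was 0.04 with a 95% interval of -0.26 to 0.35, so a change beyond a fold of 0.836 to 1.27 lay outside the interval. Among the thiolases, Scp2 (GRCm38 chr4:108043839-108144998, minus strand), which makes both a sterol carrier and a thiolase for branched chains, averaged 338 ± 58.1 CPM in Ppara-null and 300 ± 46.7 CPM in intact libraries (SD, n = 16 each), a log2 fold change of 0.17 (edgeR adjusted p = 0.27). Acaa1a, the main 3-ketoacyl-CoA thiolase (GRCm38 chr9:119339676-119350299, plus strand), averaged 10.8 ± 4.68 CPM against 10.4 ± 3.39 CPM in the same order, with a log2 fold change of 0.05. For the transport genes, Abcd3 (PMP70, which imports acyl-CoA; GRCm38 chr3:121758774-121815302, minus strand) had a log2 fold change of -0.07 and Crot (carnitine octanoyltransferase; GRCm38 chr5:8966033-8997324, minus strand) one of -0.08. The intervals of these 4 genes all held 0.

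For the Ppard alleles no member was called, against 56 of 5872 tested genes (0.954%), and no member had an unadjusted p under 0.05. Ehhadh came nearest, with a lowest value of 14.8, a median of 27.0 and a highest of 36.8 CPM in the 16 Ppard-fl/fl libraries, against 12.1, 20.6 and 34.8 CPM in the 16 Ppard-intact ones. The ranges overlapped over most of their length, and the log2 fold change was 0.26 (SE 0.148, 95% interval -0.04 to 0.56, edgeR adjusted p = 0.51). Hsd17b4 averaged 103 ± 21.2 CPM in Ppard-fl/fl and 111 ± 21.8 CPM in Ppard-intact libraries (SD, n = 16 each), a log2 fold change of -0.11 (adjusted p = 0.64).

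**Figure D3:**
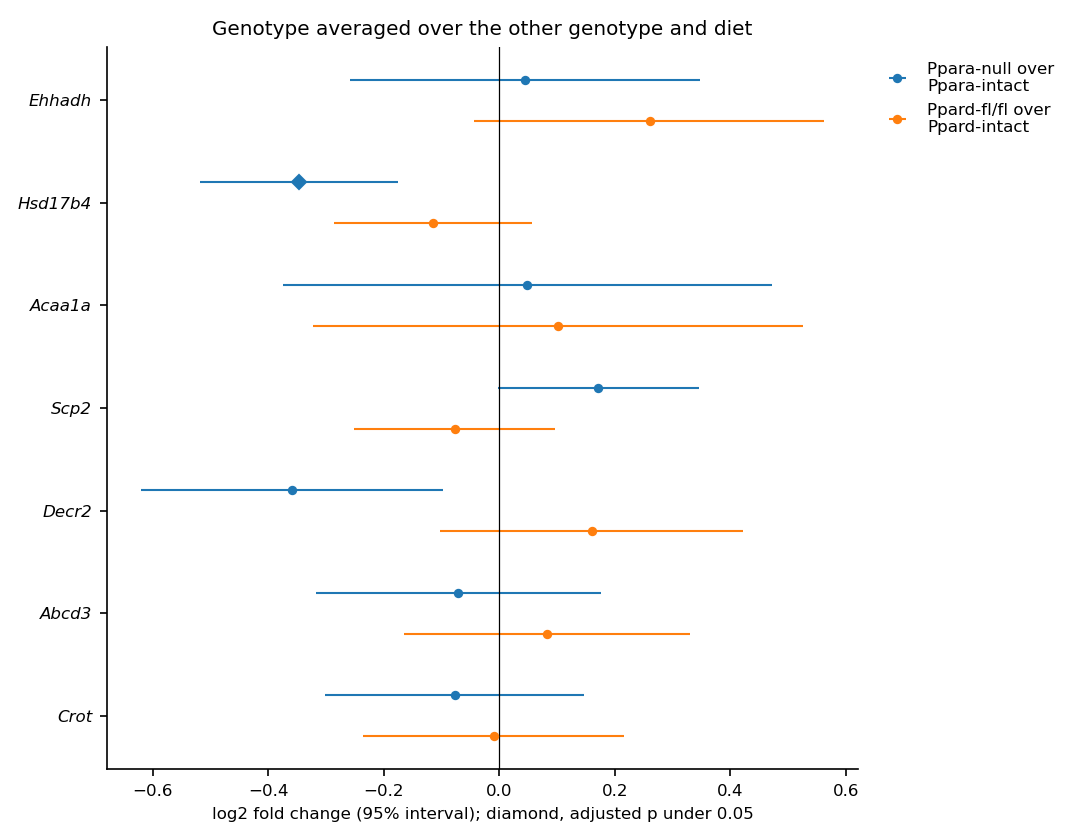
Log2 fold change of each tested member for Ppara-null over Ppara-intact and for Ppard-fl/fl over Ppard-intact, averaged over the other genotype and diet, with 95% intervals; a diamond marks an adjusted p under 0.05. Hsd17b4 in the Ppara comparison is the only diamond, at -0.35, and the Decr2 interval beside it also lies below 0.

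In the 6 comparisons of 1 mutant with WT on 1 diet no member was called by edgeR. On the control diet 110 genes (1.87%) were called in PparDA, 33 (0.562%) in PparA and 12 (0.204%) in PparD, and on the high-fat diet 92 (1.57%) in PparDA, 44 (0.749%) in PparA and 1 (0.017%) in PparD. Of the members, only Hsd17b4 had an unadjusted p under 0.05, in PparDA on each diet, and DESeq2 and limma called no member either. The mutants share their WT libraries, so these comparisons are not independent of each other.

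The high-fat diet moved no member past the threshold, averaged over the 4 genotypes or in any of them. Averaged, edgeR called 19 of 5872 genes (0.324%), and by genotype 2 in PparDA (0.0341%), 8 in PparA (0.136%), 5 in PparD (0.0851%) and 6 in WT (0.102%). With so few genes called at all, 0 of 7 members is near the background. DESeq2 and limma called no member either, and 1 member had an unadjusted p under 0.05 in the average (Abcd3) and 1 in WT (Crot).

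Abcd3 had a lowest value of 29.8, a median of 42.5 and a highest of 63.5 CPM in the 16 high-fat libraries, against 24.2, 34.0 and 56.6 CPM in the 16 control libraries. The high-fat libraries lay higher at each of these points, and the ranges overlapped. Its averaged log2 fold change was 0.30 (SE 0.121, 95% interval 0.05 to 0.55), with an unadjusted p of 0.018 and an adjusted p of 0.44 (edgeR). The mean was higher on the high-fat diet in each genotype, by 0.44 in PparDA, 0.16 in PparA, 0.30 in PparD and 0.30 in WT on the log2 scale (adjusted p 0.63 to 1). Leaving out each library gave 0.34 to 0.57 in PparDA, 0.05 to 0.34 in PparA, 0.14 to 0.53 in PparD and 0.14 to 0.43 in WT. The lowest of these came without library 6 in PparA, library 4 in PparD and library 2 in WT, all high-fat libraries. In runs 2 and 4 only, the value was 0.26 in PparDA, -0.01 in WT and 0.16 averaged over genotypes.

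Crot, which transfers shortened chains to carnitine so that they can leave the peroxisome, was at 57.4, 59.3, 46.7 and 48.3 CPM in the 4 WT high-fat libraries, against 44.1, 24.7, 24.2 and 44.4 CPM in the 4 WT control libraries. Every high-fat library lay above every control library, although the nearest were 46.7 and 44.4 CPM. The counts behind these values were 33 to 40 in the high-fat and 16 to 33 in the control libraries. The log2 fold change in WT was 0.61 (SE 0.22, 95% interval 0.16 to 1.06), with an unadjusted p of 0.0095 and an adjusted p of 0.53 (edgeR). By a count added after seeing the data, ranges of the 2 diets did not overlap for 250 of the 5872 tested genes in WT (4.26%), for 252 in PparDA (4.29%), for 174 in PparA (2.96%) and for 200 in PparD (3.41%), and Crot in WT was the only such case among the 7 tested members over the 4 genotypes.

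In the mutants Crot averaged 40.3 ± 12.7 CPM in high-fat and 40.0 ± 5.27 CPM in control libraries of PparDA, 47.2 ± 8.29 and 46.6 ± 9.32 CPM in the same order in PparA, and 53.2 ± 4.12 and 45.6 ± 10.9 CPM in PparD (SD, n = 4 each). The log2 fold changes were 0.003 in PparDA, 0.02 in PparA and 0.22 in PparD. The test of the difference itself gave -0.61 for PparDA minus WT (SE 0.316, 95% interval -1.25 to 0.04, edgeR adjusted p = 0.83), -0.59 for PparA minus WT (SE 0.31, adjusted p = 0.65) and -0.39 for PparD minus WT (SE 0.307, adjusted p = 1). The 3 differences share the WT libraries, of which the control ones have the lowest Crot mean of the 8 groups (34.4 ± 11.4 CPM). The diet response of Crot was therefore not shown to differ between genotypes by these tests. In these comparisons edgeR called 0 genes for PparDA (0%; 339 at an unadjusted p under 0.05, 1 by DESeq2 and 1 by limma), 9 for PparA (0.153%) and 3 for PparD (0.0511%), and no member.

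Of the remaining members, Decr2 was at 33, 29.6, 55.2 and 36.9 CPM in the 4 WT high-fat libraries, against 32.1, 30.6, 27.2 and 20 CPM in the 4 WT control libraries. The high-fat library at 29.6 CPM lay inside the control range and the other 3 lay above it. The log2 fold change of Decr2 was 0.49 in WT (SE 0.249, edgeR adjusted p = 0.66) and 0.20 over all genotypes (SE 0.128, adjusted p = 0.69). Ehhadh was at 18.7, 22.2, 19.8 and 19.9 CPM in the 4 WT high-fat libraries, against 34.8, 14.6, 21.2 and 21.5 CPM in the 4 WT control libraries, where the high-fat values lay inside the control range. Its log2 fold change was -0.20 in WT (SE 0.301) and 0.08 over all genotypes (95% interval -0.22 to 0.38, edgeR adjusted p = 0.94). Averaged over genotypes Crot gave 0.21, Hsd17b4 0.08, Acaa1a -0.07 and Scp2 -0.08 on the log2 scale (adjusted p 0.59 to 0.97).

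**Figure D4:**
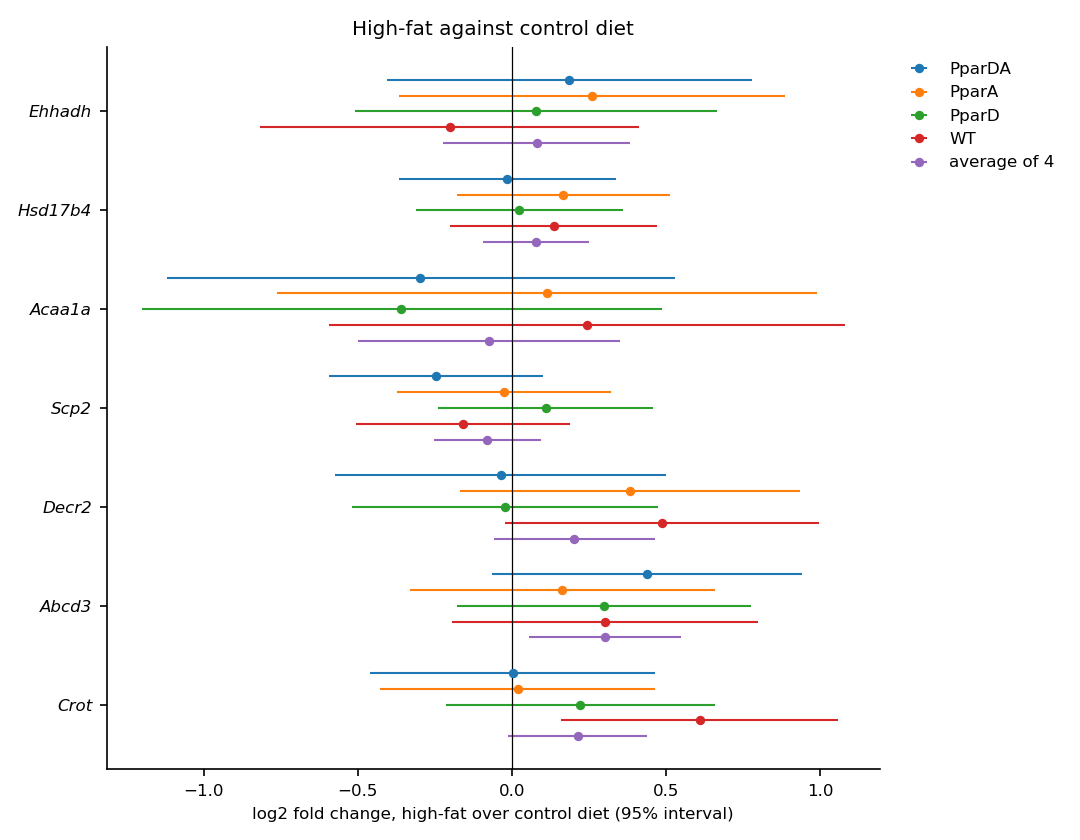
Log2 fold change of each tested member on the high-fat over the control diet in each genotype and averaged, with 95% intervals. The intervals of Crot in WT (0.61) and of Abcd3 averaged over genotypes (0.30) lie above 0, but no adjusted p was under 0.05.

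Pex11a, which helps peroxisomes divide (GRCm38 chr7:79735957-79743131, minus strand), and Acaa1b, the second thiolase of its pair (GRCm38 chr9:119148023-119157093, minus strand), were too low to test in the model. Pex11a had 1 to 6 counts in PparDA high-fat libraries against 0 to 4 in PparDA control libraries, 3 to 7 against 0 to 4 in PparA, 2 to 12 against 0 to 8 in PparD and 0 to 7 against 2 to 6 in WT. Its highest group mean was 9.02 ± 6.15 CPM, in high-fat PparD libraries, and its lowest 2.56 ± 3 CPM, in control-diet PparA libraries (SD, n = 4 each), with ranges that overlapped. Acaa1b had 8 counts in all in PparDA high-fat and 4 in PparDA control libraries, 5 and 2 in the same order in PparA, 7 and 5 in PparD, and 0 and 3 in WT. The WT libraries hold no more than 3 counts on either diet, so no fold is given. In 14 two-sided permutation tests (exact for 4 against 4 libraries, where the smallest possible p is 0.029), the smallest p was 0.11, for Acaa1b in Ppard-fl/fl (2.22 CPM on average) against Ppard-intact libraries (0.956 CPM), and the smallest Benjamini-Hochberg p was 0.74.

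Acaa1a and Acaa1b are near copies. Of the 31-base words in the longest coding transcript of Acaa1a 43.8% also occur in that of Acaa1b (49.1% in its last 500 bases), and 45.7% the other way round (45.3%), so their estimated counts depend on how shared reads were split and are uncertain. The 250-base promoters printed above differ, with 53.6% G and C in Acaa1a and 41.6% in Acaa1b. The annotation also places Slc22a14 across the 3′ end of Acaa1a and Dlec1 across that of Acaa1b, both on the opposite strand, and Podn across that of Scp2 on the same strand. The sources used here do not say whether reads were counted by strand.

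The rest of the peroxisome was read from 3 further lists. In the diet comparison averaged over genotypes, 19 of all 5872 tested genes were called (0.324%). Averaged over genotypes, the high-fat diet raised 2 of 11 tested genes of other peroxisomal lipid oxidation, Ech1 and Eci2, isomerases of unsaturated chains found in peroxisomes and mitochondria. Ech1 averaged 489 CPM in high-fat and 386 CPM in control libraries (log2 fold change 0.34, SE 0.0582, adjusted p = 0.0031), and Eci2 141 and 95.2 CPM in the same order (0.53, SE 0.113, adjusted p = 0.025). By genotype, the log2 fold change of Ech1 was 0.01 in PparDA, 0.37 in PparA, 0.28 in PparD and 0.67 in WT, and that of Eci2 was -0.17 in PparDA, 0.62 in PparA, 0.59 in PparD and 1.09 in WT. Only the WT values passed the test within a genotype (edgeR adjusted p = 0.015 for Ech1 and 0.04 for Eci2). Eci2 averaged 83.9 CPM in high-fat and 94 CPM in control libraries of PparDA. The list's median log2 fold change was 0.033, against 0.081 for the 7 tested members and -0.0067 for all tested genes. None of 13 peroxins and division genes and none of 12 other peroxisomal enzymes was called. Among mitochondrial fatty acid oxidation genes 4 of 17 were higher on the high-fat diet (Acadl, Acaa2, Hadha and Etfb), with a list median of 0.30. Acadl, a long-chain dehydrogenase, averaged 24.3 CPM in high-fat and 12.3 CPM in control libraries (1.07, SE 0.186, adjusted p = 0.0031).

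PPAR targets outside the peroxisome included 3 of 9 that were higher on the high-fat diet averaged over genotypes, among them Fabp1 and Fabp2, fatty acid carriers of enterocytes. Fabp1 averaged 939 CPM in high-fat and 303 CPM in control libraries (1.72, SE 0.302, edgeR adjusted p = 0.0031), and Fabp2 725 and 503 CPM in the same order (0.53, SE 0.119, adjusted p = 0.034). Of the 15 tested enterocyte markers Fabp2 alone was called in that comparison, and the summed enterocyte level had a median of 1960 CPM in high-fat and 1720 CPM in control libraries. None of 9 Paneth markers was called, with median sums of 13000 CPM in high-fat and 7350 CPM in control libraries, and none of 6 goblet markers, with median sums of 2090 CPM in high-fat and 1400 CPM in control libraries. Their part in these changes was not tested. In Ppard-fl/fl libraries Acadl, Acaa2 and Slc25a20 of the mitochondrial list were higher (3 of 17). So were 2 of 9 PPAR targets, among them Angptl4, while 0 genes of the 3 peroxisomal lists were called. Over all tested genes 56 of 5872 were called in that comparison (0.954%).

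In the Ppara-null libraries the genes called in the peroxisomal lists were lower, as Hsd17b4 was. Over all 5872 tested genes 445 were called in this comparison (7.58%), 187 lower and 258 higher. With 1 or 2 calls per list, an excess over that share was not tested. Of 11 lipid oxidation genes 2 were lower, Eci2 at 96.9 CPM in Ppara-null and 140 CPM in intact libraries (-0.46, SE 0.113, adjusted p = 0.0087) and Nudt7, a CoA diphosphatase, at 9.66 and 15.6 CPM in the same order (-0.69, SE 0.19, adjusted p = 0.021). Of 13 peroxins and division genes 1 was lower, Pex19, the chaperone of membrane proteins, at 55.8 CPM in Ppara-null and 79.4 CPM in intact libraries (-0.51, SE 0.106, adjusted p = 0.0017). Of 12 other enzymes 2 were lower, catalase (Cat) at 120 and 149 CPM in the same order (-0.31, SE 0.0873, adjusted p = 0.024) and Far2, a fatty acyl-CoA reductase, at 278 and 344 CPM (-0.31, SE 0.0781, adjusted p = 0.012). No gene of these 3 lists was called higher. The averaged decreases of Eci2 and Cat did not hold for each pair of groups. Against WT on the high-fat diet, the log2 fold change of Eci2 was -0.90 in PparDA (edgeR adjusted p = 0.035) and -0.30 in PparA (adjusted p = 0.66). On the control diet it was 0.36 in PparDA and 0.17 in PparA (adjusted p = 0.54 and 0.89). Cat differed from WT by -0.74 in PparDA (edgeR adjusted p = 0.023) and -0.41 in PparA (adjusted p = 0.32) on the high-fat diet. On the control diet Cat differed by -0.07 in PparDA and 0.008 in PparA. Nudt7, Pex19 and Far2 were lower than WT in PparDA and PparA on both diets. The list medians were 0.0051, -0.052 and -0.082, against -0.071 for the 7 tested members and -0.0015 for all tested genes, so the middle gene of each list stayed close to no change. Acadvl (-0.63) and Slc25a20 (-0.54) of 17 mitochondrial genes and Plin2 (-0.27), a lipid droplet protein, of 9 PPAR targets were lower too in the averaged comparison. Against WT on the control diet, Acadvl differed by 0.05 in PparA and -0.07 in PparDA, and Slc25a20 by -0.36 and 0.49. On the high-fat diet, in the same order, Acadvl differed by -0.55 and -1.21 and Slc25a20 by -0.17 and -0.17. Plin2 was above WT only in PparA on the high-fat diet (0.14). The enterocyte and goblet markers given above were higher in the averaged Ppara-null comparison.

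**Figure D5:**
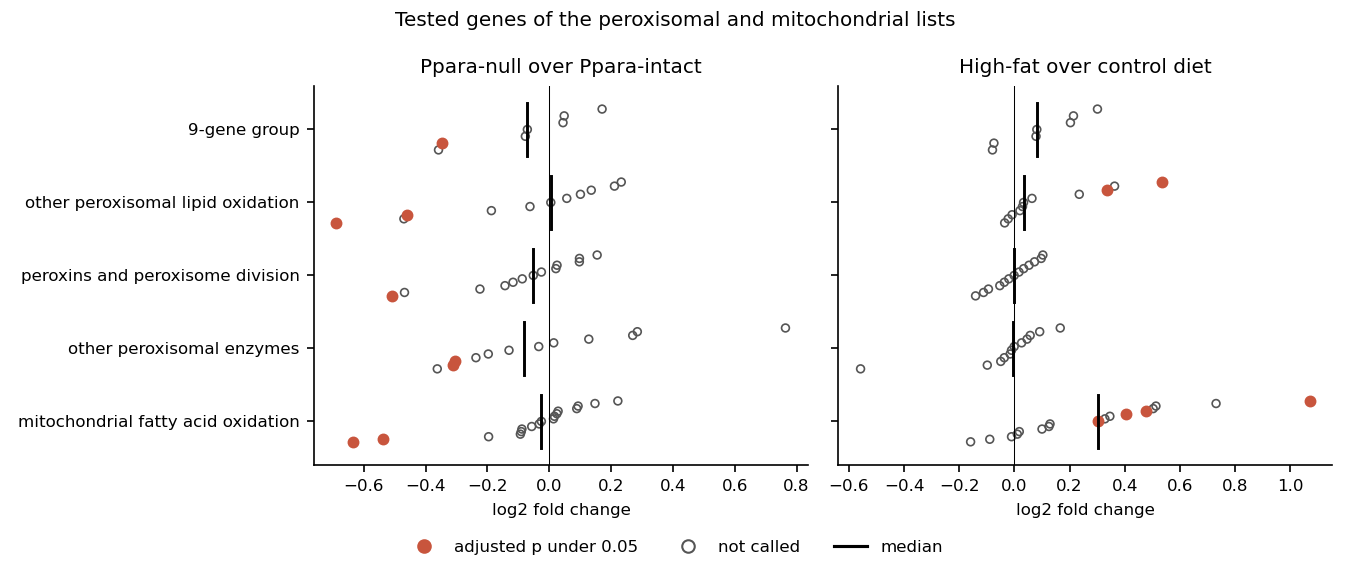
Log2 fold change of each tested gene of the 9-gene group, 3 peroxisomal lists and the mitochondrial list in Ppara-null over Ppara-intact libraries (left) and on the high-fat over the control diet (right); filled points had an adjusted p under 0.05 and lines are medians. Every filled point on the left lies below 0 and every filled point on the right above 0, while the medians of the peroxisomal lists lie near 0.

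For each member at 30 CPM or more, the 3 most similar tested genes were found by Pearson's r of log2 CPM over the 32 libraries among 5474 genes; the libraries share depth, run and group, so these are descriptions. Hsd17b4 was most like Polr2k (r = 0.73), Sdc2 (0.71) and Wdr31 (0.69), and with group means removed r was 0.54, 0.44 and 0.55. Polr2k (chr15:36174010-36177010) and Sdc2 (chr15:32920723-33034935) lie on the same chromosome, and Wdr31 lies on chromosome 4. Whether their likeness to Hsd17b4 follows the Ppara-null allele was not tested. Crot was most like Ccpg1 (0.66), Hsdl2 (0.61) and Cpt1a (0.60), of which Hsdl2 encodes a peroxisomal dehydrogenase-like protein and Cpt1a the gate of fatty acids into mitochondria. Scp2 was most like Gstm7 (0.68), Ctsb (0.56) and Hes1 (0.56), and Abcd3 like Lsm5 (0.62), Rps27l (0.62) and Lamtor4 (0.58). Decr2 was equally like Mrps15, Depdc5 and Arl6ip1 (0.61 each). With run means removed, r was 0.55, 0.4 and 0.21 for the genes named with Scp2 and 0.44, 0.48 and 0.51 for those named with Abcd3. It was 0.57 to 0.72 for the genes named with Hsd17b4, Crot and Decr2. No other member was among these genes.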

How the data were processed

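Expected counts per gene (whole numbers) and log2(CPM + 1) values were deposited by the authors; per the submitters' processing notes Salmon 1.1.0, edgeR 3.30.2, R 4.0.2 and mm10 were used. Molecular identifiers are not given, so counts need not be independent molecules. Column names give a group and a library number, with no replicate number.

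Of 54418 identifiers 54096 were matched to symbols, and coordinates come from the GRCm38 (mm10) annotation. Genes were kept with filterByExpr (minimum count 10, minimum total 15), leaving 5872 genes with 97.06 to 97.72% of the counts. All 32 libraries entered a single model with a coefficient for each group (edgeR 4.0.16, TMM factors 0.9384 to 1.075, glmQLFit and glmQLFTest, R 4.3.3); tests were two-sided, with p adjusted by Benjamini-Hochberg within each of 16 comparisons and a call at an adjusted p under 0.05. The common biological coefficient of variation was 21.7%. CPM is the count divided by total times TMM factor. Permutation tests of means over 16 against 16 libraries used 1e+05 resamples. The fit was also run on simulated counts, with results that are not reported here. Those counts were drawn independently for each library with no likeness within runs. That check therefore cannot show how such likeness affects the tests.

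The members, gene lists and comparisons were chosen with earlier results of these data known. Named are the members and, from each list, the called genes and up to 4 with the smallest p, except some that are not reported here. Alternatives were DESeq2 1.42.0 (size factors, and its own Wald test), limma 3.58.1 on the deposited log2 values, no filter, a robust prior, the run of library numbers as a replicate block, subsets of runs and leaving out each library.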

Additional observations from a re-analysis of the deposited data

Results flagged for a closer look

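In 72 groups of 4 libraries examined (9 genes in 8 groups), 5 had a library whose gap to the nearest other exceeded Dixon's 95% critical value for 4 values, as a share of the range, where chance flags about 5% of groups.

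Scp2 in WT on the control diet had 1 library at 372 CPM, with a gap of 0.928 of the range. Abcd3 had 1 library at 50.9 CPM in PparA on the high-fat diet (0.879) and 1 at 56.6 CPM in PparD on the control diet (0.905). Acaa1b on the control diet had 1 library at 6.08 CPM in PparDA and 1 at 3.09 CPM in PparA, each with the other 3 libraries at 0, so that the gap was 1, the whole range. These values rest on 4 and 2 counts.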

How the results depend on the processing

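The call of Hsd17b4 in the Ppara-null comparison held under every alternative over all libraries (log2 fold change -0.373 to -0.345, adjusted p 0.0045 to 0.0081) and without each library in turn (-0.376 to -0.308, adjusted p 0.003 to 0.016); members called were 1 to 2 when leaving out each library. It was lost in runs 1 and 3 only (0 members called) and in runs 2 and 4 only (0 members called). These subsets hold fewer libraries, and the log2 fold change also differed, at -0.46 in runs 1 and 3 and -0.22 in runs 2 and 4. Why the call was lost was not tested. In the other 15 comparisons no member was called under any alternative. With the library run as replicate block 1 member was called in the Ppara-null comparison, as without it, and the block changed no other member's call; over all genes it gave 526 against 445 calls there and 44 against 19 for the averaged diet. Within their run 31 of 32 libraries correlated best (median r 0.153, against -0.0709 between runs), and runs also differ in sex-linked transcripts. Of 112 same-run pairs 84 had r over 0.1, and the lowest r was -0.0346. The labels do not say what a run is. The edgeR shares of called genes given above come from the model without the block. With no filter on low counts the number of calls by edgeR was higher in all 16 comparisons, between 55 for diet in PparD minus WT (3 with the filter) and 712 for Ppara-null. For the averaged diet it called 148, for diet in WT 99 and for the Ppard alleles 206, against 19, 6 and 56 with the filter. DESeq2 called 41 genes for the averaged diet, 35 for diet in PparDA (2 by edgeR) and 103 for the Ppard alleles, where the block gave 144. The Ppara-null comparison gave 73 calls in runs 1 and 3 and 325 in runs 2 and 4.

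Some members' values changed sign. In runs 1 and 3 only, the log2 fold changes were -0.0135 for Ehhadh, -0.191 for Acaa1a and 0.0196 for Crot in the Ppara-null comparison, and -0.341 for Decr2 in PparDA against WT on the control diet. In runs 2 and 4 only, they were 0.0602 for Acaa1a, -0.0658 for Hsd17b4, -0.0651 for Decr2 and 0.051 for Scp2 on the averaged diet, -0.24 for Crot on diet in PparDA, -0.0132 for Abcd3 and 0.226 for Ehhadh on diet in WT, 0.00447 for Decr2 in PparA against WT on the control diet, and 0.0305 for Hsd17b4 in the Ppard comparison. With limma on the deposited values, Acaa1a gave -0.034 in the Ppara-null comparison and Crot -0.0227 and -0.114 on diet in PparA and PparDA. Without the libraries numbered 13 and 14, Ehhadh gave -0.0238 and Acaa1a -0.0452 in the Ppara-null comparison. Leaving out each library gave -0.0144 to 0.114 for Ehhadh and -0.0974 to 0.12 for Acaa1a in the Ppara-null comparison, -0.0914 to 0.116 for Crot on diet in PparA, -0.174 to 0.182 in PparDA, -0.366 to 0.076 for Ehhadh on diet in WT, and -0.0621 to 0.232 for Decr2 in PparDA against WT on the control diet. The causes were not tested. Mean counts per library were 7.12 for Acaa1a and 214 for Scp2, the lowest and highest of the tested members.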
